A study of Mus musculus with 2 samples.

Results

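The genes described here encode the enzymes that add or remove methyl groups on histones, remove acetyl groups from proteins and histones, and methylate DNA, together with the core subunits of Polycomb repressive complex 2 (PRC2). Members were taken by symbol from the probe sets that the platform annotation pairs with a single gene: every Kdm, Kmt, Setd, Prmt, Hdac or Sirt symbol followed by a digit, plus Ezh1, Ezh2, Eed, Suz12, the Suv39h and Ehmt genes and Dnmt1, Dnmt3a and Dnmt3b, with Kdm5c and Kdm5d left out. This gave 60 genes with 120 probe sets, of 17097 genes on the array. The rule uses symbols and no measured value, but it was set with earlier results of these data known.

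Both groups were CD4 T cells of Foxp3-eGFP reporter mice on the C57/Bl6 background, 6 weeks old, in which regulatory T cells carry the green reporter. Naive cells without Foxp3, sorted as CD62L high and CD44 low, were kept for 48 hours in culture with soluble antibody against CD3, part of the T cell receptor complex. Antigen-presenting cells (APC) were CD3-depleted splenocytes that mitomycin C, used at 50 ug/ml, kept from dividing. Their donors were wild type mice (Wt APC) or mice with a transgene for OX40L, the ligand of the costimulatory receptor OX40 (OX40L-Tg APC); the labels used here do not name the promoter of that transgene. Living CD4 T cells were sorted again, and RNA of each culture was read on 1 Affymetrix HT MG-430 PM array. With 1 array for each kind of APC there is no replicate, so no difference below has an error or a test.

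Histone methyltransferases and demethylases set marks that keep genes active (methylated lysine 4 or 36 of histone H3) or silent (methylated lysine 9 or 27), and deacetylases strip the acetyl groups of active chromatin. DNA methyltransferases copy or establish methylated CpG. In CD4 T cells these enzymes are known to hold cytokine and lineage genes of alternative helper fates silent while the chosen fate is fixed, PRC2 and DNA methylation among them.

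Values are intensities in linear units, equalised between the arrays by the authors' RMA processing. A gene took the probe set with the highest mean level, and it counted as above the floor when it reached the array median of 14.7 units on at least 1 array. The background level, the 95th percentile of 64 genes restricted to other organs, was 37.4 units for Wt APC and 41.7 units for the other array. Of these 64 genes, 3 read above it on both arrays, among them the thyroglobulin gene at 3302 and 4491 units. The level thus depends on the genes listed, and calls close to it are uncertain. In each pair of values the Wt APC array comes first, and a difference is the log2 value with OX40L-Tg APC less that with Wt APC. Intensities of different genes rest on different probes and were not compared with each other.

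The chromatin modifier genes read nearly alike on both arrays. Of the 60 genes, 55 were above the floor, and their median difference was 0.01, beside 0.02 over all 10541 genes above the floor. Of these 55 members, 28 read higher and 27 lower on the OX40L-Tg APC array, beside 5687 higher and 4851 lower of the 10541 genes. A single member, Hdac9, passed 1.5-fold upward, from values below background, or 1.82%, where 3.85% of all genes above the floor did. None was at least 1.5-fold lower, beside 3.36% of all genes. At 2-fold the count was 0 in both directions, beside 1.56% of all genes higher and 1.17% lower. At 1.2-fold in either direction, a threshold added after the values were seen, 10 of 55 members passed, or 18.2%, 5 in each direction, beside 26.6% of all genes. The SD of the differences was 0.24 among the members and 0.39 among all genes above the floor. The median absolute difference was 0.16 among the members and 0.14 among all genes. Above background on both arrays it was 0.14 and 0.12. Counts of 1 and 0 in 55 members are too small to set apart from the shares over all genes. The typical member differed no less than the typical gene.

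The floor admits genes that reach it on either array, and Hdac9 reached it with OX40L-Tg APC alone, so it had to be higher there. Hdac9, a class IIa deacetylase, read 9.11 and 16.4 units, both below background, so its fold cannot be read as a size. Its other probe set, below the floor, read 11.4 and 9.86 units, the opposite order. Above background on both arrays stood 53 of the 60 genes. Among these 53 the differences ran from -0.46 to 0.51, and 0 were 1.5-fold apart, beside 3.39% higher and 2.64% lower of the 7877 genes on the array above background on both. Hdac8 was above background with Wt APC only.

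**Figure D1:**
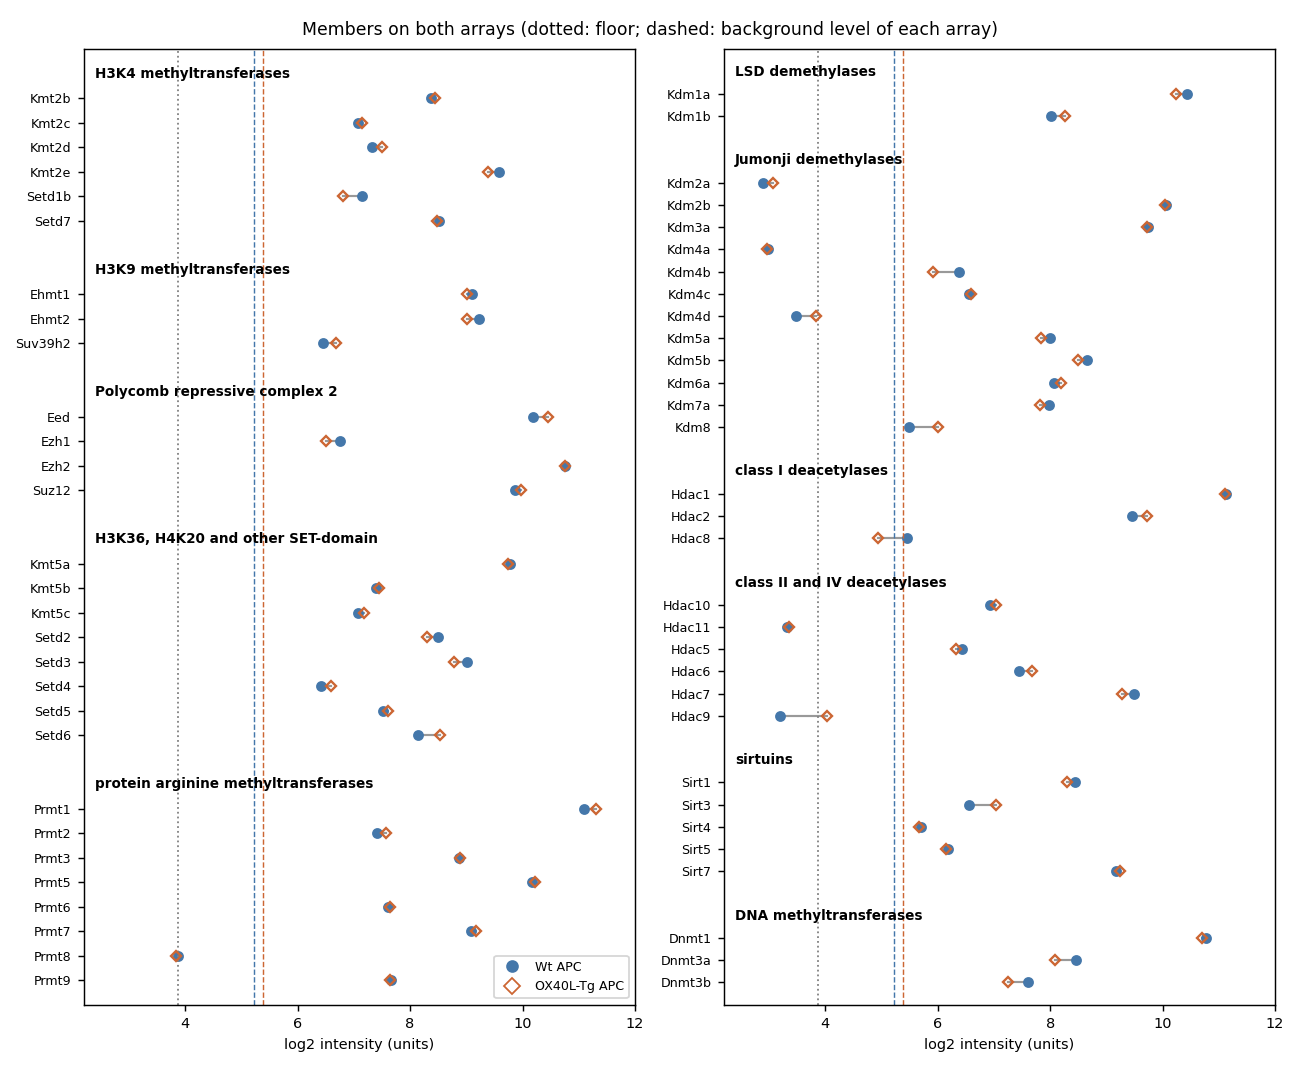
Log2 intensity of each of the 60 genes with Wt APC (filled circles) and OX40L-Tg APC (open diamonds), grouped by role, 1 array each; the dotted line is the floor and the dashed lines are the background level of each array. Most pairs of symbols nearly coincide, the widest gap is that of Hdac9 left of both background lines, and 5 genes lie left of the floor.

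**Figure D2:**
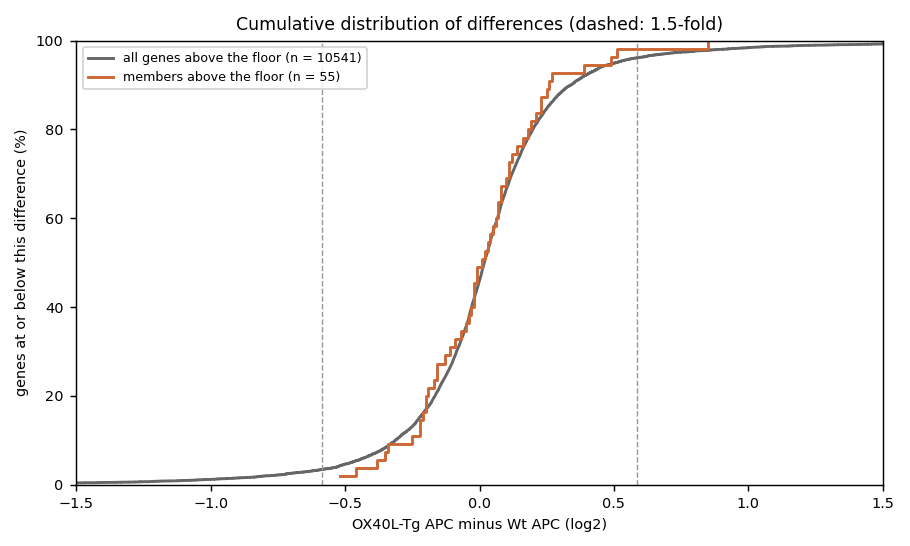
Cumulative share of genes (%) by the difference OX40L-Tg APC minus Wt APC (log2), for the 55 members (orange) and all 10541 genes (grey) above the floor, with dashed lines at 1.5-fold. The axis covers 1.5 units on either side of 0. Both curves cross 50% near 0, and Hdac9 is the only member beyond either dashed line.

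The DNA methyltransferases were all lower with OX40L-Tg APC, by a median of -0.35 over 3 genes. Dnmt3a, a de novo methyltransferase that limits switching between helper fates in T cells, read 352 and 271 units, a difference of -0.38. Each of its 5 probe sets was above background on both arrays and lower with OX40L-Tg APC, from -0.45 to -0.15. Dnmt3b, the other de novo enzyme, read 194 and 152 units, a difference of -0.35, and its weaker probe set read 55.4 and 37.4 units, the second of them below background. Dnmt1, the maintenance enzyme that copies methylation after DNA replication, read 1742 and 1664 units, a difference of -0.07. Dnmt1 and Dnmt3b rest on probe sets marked as shared between transcripts, and 1 of each is above background on both arrays. All 3 genes stayed within 1.5-fold. Of 9 partner genes of DNA methylation above the floor, such as Uhrf1 and the Tet dioxygenases, 7 were lower and 2 higher, with a median of -0.08. Of the 2 higher, Dnmt3l passed the floor with OX40L-Tg APC alone, so it had to be higher there. Dnmt3l and Tet3 were below background on both arrays, and the other 7 were above it on both.

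PRC2 trimethylates lysine 27 of histone H3. Its main catalytic subunit Ezh2, known to rise when T cells divide, read 1726 and 1737 units, a difference of 0.01. Ezh1, the alternative catalytic subunit of resting cells, read 108 and 90.7 units, a difference of -0.25, and -0.16 in a probe set below background. Its difference was -0.12 with the mean of its 4 probe sets and -0.05 when those shared between transcripts were left out, which puts it below the floor. Eed, which binds the finished mark, read 1169 and 1398 units, a difference of 0.26. Suz12, the scaffold subunit, read 930.3 and 1011 units, a difference of 0.12, with 4 probe sets above background between -0.07 and 0.12. The subunits differed in direction, and each stayed within 0.26 of 0.

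The promoters of Ezh2, Dnmt1, Dnmt3a and Dnmt3b are shown for the catalytic subunit of PRC2 and the DNA methyltransferases; these genes were picked after their values were seen, and matches are not compared between them. Sequences are from RefSeq on GRCm38.p6, from 250 bases before to 50 after a start site, 5′ to 3′ on the gene's strand. Capitals mark a match to either spelling of the E2F motif searched, TTTGGCGC or TTTCCCGC, on either strand; E2F factors drive genes of DNA replication. The Ezh2 window lies at chr6:47594981-47595280 on the minus strand, that of Dnmt1 at chr9:20952574-20952873 on the minus strand, that of Dnmt3a at chr12:3806730-3807029 and that of Dnmt3b at chr2:153649199-153649498, both on the plus strand. Dnmt1 has 3 windows in the table. The one shown is that of the start site furthest 3′, and it is the only one with a match. Dnmt3a has 3 windows, of which the one furthest 5′ is shown, and none of the 3 holds a match.

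Ezh2: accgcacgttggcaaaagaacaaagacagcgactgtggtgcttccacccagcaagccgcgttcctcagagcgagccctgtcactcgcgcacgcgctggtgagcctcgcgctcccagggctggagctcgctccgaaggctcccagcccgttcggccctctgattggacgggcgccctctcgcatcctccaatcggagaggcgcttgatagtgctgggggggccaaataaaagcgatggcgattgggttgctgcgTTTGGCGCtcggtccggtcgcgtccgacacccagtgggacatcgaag
Dnmt1: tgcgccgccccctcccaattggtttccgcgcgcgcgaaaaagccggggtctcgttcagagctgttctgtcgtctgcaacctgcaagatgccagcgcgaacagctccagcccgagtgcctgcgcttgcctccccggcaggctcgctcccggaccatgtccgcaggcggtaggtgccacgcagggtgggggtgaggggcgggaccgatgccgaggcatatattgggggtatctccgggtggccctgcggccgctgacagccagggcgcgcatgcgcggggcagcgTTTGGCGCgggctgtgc
Dnmt3a: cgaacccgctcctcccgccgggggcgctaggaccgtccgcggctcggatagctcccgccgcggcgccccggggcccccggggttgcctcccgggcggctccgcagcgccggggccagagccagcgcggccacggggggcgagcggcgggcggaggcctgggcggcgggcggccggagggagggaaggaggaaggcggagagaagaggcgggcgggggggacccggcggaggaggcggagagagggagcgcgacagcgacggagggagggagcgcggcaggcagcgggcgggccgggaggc
Dnmt3b: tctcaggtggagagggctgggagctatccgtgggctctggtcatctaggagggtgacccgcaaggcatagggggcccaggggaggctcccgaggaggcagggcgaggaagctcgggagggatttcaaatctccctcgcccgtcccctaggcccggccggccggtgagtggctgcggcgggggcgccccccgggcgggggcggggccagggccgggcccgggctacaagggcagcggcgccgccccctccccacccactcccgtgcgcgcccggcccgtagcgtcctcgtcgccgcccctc

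The letters TTTGGCGC are held by 0.514% of the 32851 promoter windows of the table, and by 2.74% of the 73 windows of 52 member genes, those of Ezh2 and Dnmt1. TTTCCCGC is held by 1.07% of all windows and 4.11% of member windows, those of Kmt5c, Sirt4 and Suz12. These windows are rich in CpG, with 31 in Ezh2, 33 in Dnmt1, 46 in Dnmt3a and 30 in Dnmt3b, beside a median of 24 over the member windows and 7 over all windows. Motifs of factors downstream of costimulation were searched in the same way on both strands. The NF-kB core GGANNTTCC was held by 2.74% of member windows and 4.26% of all windows, the AP-1 and BATF motif TGANTCA by 6.85% and 7.81%, and the STAT motif TTCNNNGAA by 8.22% and 8.30%. Matches are letters in these windows only. The E2F shares of the members rest on 2 and 3 windows. Member windows had a median GC of 62.7% beside 52.7% over all windows, and no share was adjusted for base composition. On the same arrays 23 genes of S phase and mitosis had a median difference of -0.05. By the probe set with the highest mean, 0 of them reached 1.2-fold, beside 26.6% of all genes above the floor. A weaker probe set of Bub1 differed by -0.53.

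Methyltransferases of lysine 4 of histone H3, a mark of promoters and enhancers, had a median difference of 0.01 over 6 genes. Kmt2b read 332 and 346 units, a difference of 0.06. Kmt2c and Kmt2d, which methylate enhancers, differed by 0.07 and 0.18, at 136 and 142 units for Kmt2c and at 159.6 and 181 units for Kmt2d. Kmt2e, a family member thought to have lost its enzyme activity, read 773 and 666 units, a difference of -0.21, and its 3 probe sets above background were all lower, down to -0.44. Setd1b, a catalytic subunit of the COMPASS complex, read 142 and 112 units, a difference of -0.34, or 1.26-fold lower, in 1 probe set. Setd7, which adds a single methyl group, differed by -0.03. The shared COMPASS subunits such as Wdr5 and Ash2l had a median of 0.01 over 11 genes, between -0.37 and 0.24.

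Methyltransferases of lysine 9, which build silent chromatin, were split. Ehmt2, known as G9a and required for full Th2 cytokine expression in mouse T cells, read 599.6 and 521 units, and its 2 probe sets differed by -0.20 and -0.22. Its partner Ehmt1 read 549 and 516 units, a difference of -0.09. Suv39h2 read 87.6 and 103 units, a difference of 0.23, with 3 of 3 probe sets higher.

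Among the other SET-domain genes, which act on lysine 36 of H3, lysine 20 of H4 or proteins other than histones, 5 of 8 were higher and 3 lower, with a median of 0.06; with the mean of all probe sets 4 were higher and 4 lower. Setd6, known to methylate the NF-kB subunit RelA, read 284 and 372 units, a difference of 0.39 or 1.31-fold. Its second probe set above background differed by 0.44, and the third, below background, by 0.14. Setd2, the trimethylase of lysine 36, read 362 and 316 units, a difference of -0.19. Setd3, which modifies a histidine of actin, differed by -0.22, Setd4 by 0.19 and Setd5 by 0.08. Kmt5a, which adds the first methyl group to lysine 20 of H4 around mitosis, read 878 and 864 units, a difference of -0.02. Kmt5b and Kmt5c, which add the further ones, differed by 0.05 and 0.11, with the 2 probe sets of Kmt5b above background on opposite sides of 0.

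The protein arginine methyltransferases had the smallest SD of differences of the 11 role groups, 0.08. Of 7 above the floor, 6 were higher and 1 lower with OX40L-Tg APC, all between -0.02 and 0.21, with a median of 0.07. With the mean of all probe sets of a gene 4 were higher and 3 lower, between -0.15 and 0.21, so the directions of the smallest differences depend on the probe sets. Prmt1, the main enzyme of asymmetric dimethylation, read 2178 and 2514 units, a difference of 0.21. Prmt5, the main enzyme of symmetric dimethylation and known to support T cell proliferation, read 1143 and 1204 units, a difference of 0.07. Prmt2 differed by 0.16, Prmt3, which acts on a ribosomal protein, by 0.02, Prmt6 by 0.04, Prmt7 by 0.10 and Prmt9 by -0.02. Prmt8, an enzyme of brain, read 14.7 and 14.3 units, below the floor on both arrays.

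The flavin-dependent demethylases stood on opposite sides. Kdm1a, known as LSD1, which removes methyl groups from lysine 4, read 1382 and 1203 units, a difference of -0.20, with -0.28 in its other probe set. Kdm1b, its paralogue, read 259.8 and 308 units, a difference of 0.25.

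Of the Jumonji demethylases, which use iron and oxoglutarate, 9 of 12 were above the floor, 3 higher and 6 lower, with a median of -0.02. Kdm6a, a demethylase of lysine 27 that opposes PRC2, read 268 and 295 units, a difference of 0.14, with 0.05 in its second probe set. Kdm2b, which brings Polycomb complexes to CpG islands, read 1065 and 1050 units, and Kdm3a, a lysine 9 demethylase induced by hypoxia, 856 and 851 units; their differences were -0.02 and -0.01. Kdm5b, a lysine 4 demethylase, read 403 and 361 units, a difference of -0.16, and -0.12 in its other probe set. Its paralogue Kdm5a differed by -0.17 in one probe set and 0.31 in another, so its direction depends on the probe set. Kdm7a differed by -0.16, with all 3 probe sets lower. Kdm4b, a lysine 9 demethylase, read 83.6 and 60.6 units, a difference of -0.46, or 1.38-fold lower, whereas its paralogue Kdm4c differed by 0.03. Kdm8 read 44.9 and 64.0 units, a difference of 0.51 or 1.42-fold, from a Wt APC value only just above background. Kdm4b and Kdm8 each rest on 1 probe set. Kdm2a, Kdm4a and Kdm4d were below the floor on both arrays, at 7.44 and 8.45, 7.94 and 7.77, and 11.1 and 14.3 units.

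**Figure D3:**
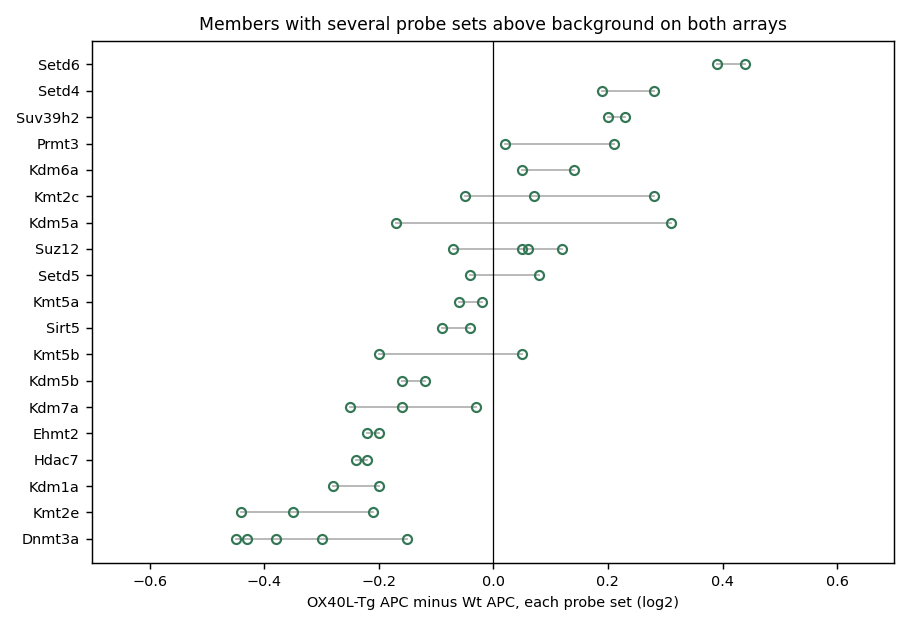
Difference OX40L-Tg APC minus Wt APC (log2) of each probe set above background on both arrays (open circles), for the 19 members with several, joined by a line per gene and ordered by the median. Dnmt3a and Kmt2e lie wholly left of 0 and Setd6 wholly right of it, whereas Kdm5a, Kmt2c, Kmt5b, Setd5 and Suz12 span 0.

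Class I deacetylases, the catalytic subunits of the Sin3, NuRD and CoREST repressor complexes among them, had 1 member higher and 2 lower. Hdac1 read 2233 and 2210 units, a difference of -0.01, and Hdac2, which shares those complexes with it, 704 and 849 units, a difference of 0.27. Hdac8 read 44.1 and 30.6 units, a difference of -0.52, in 1 probe set. Its Wt APC value was close to the background of 37.4 units and its OX40L-Tg APC value below background. The fold of Hdac8 therefore cannot be read as a size. Of the class II and IV enzymes, Hdac7, a class IIa deacetylase prominent in the T lineage, read 721 and 619.5 units, and its 2 probe sets differed by -0.22 and -0.24. Hdac6, the tubulin deacetylase, read 174 and 204 units, a difference of 0.23. Hdac5 differed by -0.11 and Hdac10, a polyamine deacetylase, by 0.11. Hdac11 read 10.1 and 10.3 units, below the floor. Partner genes of the deacetylase complexes had a median of -0.01 over 27 genes, with 12 higher and 15 lower.

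Sirtuins remove acetyl and related groups with NAD as cosubstrate. Sirt3, the main deacetylase of mitochondria, read 93.8 and 131 units, a difference of 0.49 or 1.40-fold. Its only probe set is marked as shared between transcripts. Sirt4 and Sirt5, also mitochondrial, differed by -0.05 and -0.04, at 52.2 and 50.5 units for Sirt4 and at 72.9 and 70.8 units for Sirt5. Sirt1, a nuclear deacetylase known to restrain T cell activation, read 347 and 316 units, a difference of -0.13. Sirt7, a sirtuin of the nucleolus, read 575 and 609 units, a difference of 0.08. The mitochondrial members thus did not share the difference of Sirt3.

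Among 106 genes of the associated complexes with a value, 103 were above the floor, 49 higher and 54 lower, with a median of -0.01. Of these 103, 3 passed 1.5-fold upward and 0 downward, beside the 3.85% and 3.36% of all genes given above. Neither count is above the share over all genes, and the 3 are named because they passed. Jarid2, which recruits PRC2 to chromatin and lacks demethylase activity, read 353 and 729 units, a difference of 1.04 or 2.06-fold. All 3 of its probe sets agreed, from 0.94 to 1.04, while the core subunits of PRC2 lay between -0.25 and 0.26. Riox2, the Jumonji oxygenase also called Mina and known as a repressor of Il4 in mouse T cells, read 577 and 929 units, a difference of 0.69 or 1.61-fold. Its 3 probe sets above background differed by 0.55 to 0.82, and a probe set below background by 0.21. Mier1, a scaffold that binds Hdac1 and Hdac2, read 230.0 and 355 units, a difference of 0.63 or 1.54-fold, in 1 probe set. The 24 polycomb partners had a median of -0.01, and Jarid2 was the only one of them past 1.5-fold. Acetyltransferases, which oppose the deacetylases, had a median of -0.04 over 11 genes, between -0.47 and 0.10.

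**Figure D4:**
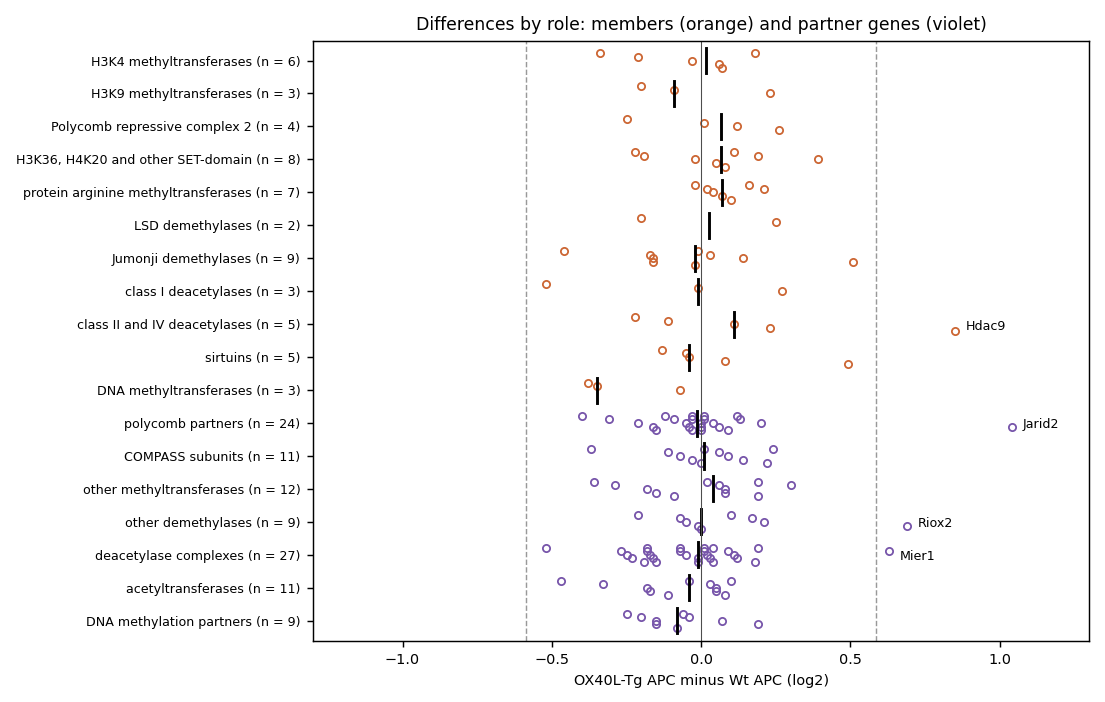
Difference OX40L-Tg APC minus Wt APC (log2) of each gene above the floor, by role (circles; orange for the members, violet for partner genes), with the median as a black bar and dashed lines at 1.5-fold. Hdac9, Jarid2, Riox2 and Mier1 lie right of the dashed line and no gene lies left of the other.

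Members with several probe sets give the only view of technical scatter. Of 19 members with 2 or more probe sets above background on both arrays, 14 had the same sign in each of them, 5 higher and 9 lower, or 73.7%, beside 69.1% of the 2883 such genes on the array. The SD between probe sets of the same gene was 0.12 for the members and 0.12 for all such genes, and the widest span among the members was 0.48, that of Kdm5a. Probe sets of a gene share the RNA of 1 culture, so their agreement measures the probes and not the spread between cultures.

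Cell type markers differed between the arrays as well. T cell markers were lower with OX40L-Tg APC in 7 of 8 genes, with a median of -0.30 and a summed level of 21701 and 18347 units, and Cd3e read 1452 and 912 units. MHC class II genes were higher in 4 of 4, with a median of 0.46 and a summed level of 2130 and 2948 units, and B cell genes in 3 of 4, with a median of 0.24 and a summed level of 573 and 782.5 units. Ciita, also listed for MHC class II, was below the floor on both arrays, at 11.2 and 8.51 units. Pax5, the defining factor of B cells, was below the floor on both arrays, as were Lyz2, Adgre1 and Csf1r of macrophages and Foxp3. The same held for Adipoq, Fabp4 and Lep of adipocytes, checked because the labels' extraction text speaks of adipose tissue. Cd14 and Fcgr1 of macrophages or monocytes passed the floor but not background, with differences of 0.42 and 0.08. CD8 T cell genes were higher in 2 of 2, Cd8b1 at 191 and 239 units and Cd8a below background on both arrays. Dendritic cell genes were higher in 2 of 3, Itgax and Zbtb46, both below background on both arrays. Flt3, the dendritic cell gene above background on both, read 46.1 and 43.3 units, a difference of -0.09. NK cell genes above the floor were lower in 2 of 2. Nkg7 read 178 and 155 units. Klrb1c was below background and passed the floor with Wt APC alone, so it had to be lower. Ncr1 was below the floor. Hba-a1, an erythroid gene, read 1161 and 207 units. The members above background differed by -0.46 to 0.51 beside these shifts, whose part in those differences was not tested. In such bulk RNA, fewer cells of a type and less RNA per cell cannot be told apart.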

How the data were processed

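The deposited table holds intensities of probe sets, linear in scale, which the authors made with RMA, per the submitters' processing notes; its version and the set of arrays normalized together are not given in the sources used here. A log2 scale had been planned for, so log2 was taken first. RMA draws low intensities together, so differences of dim genes are understated, and a global change of RNA content could not be seen after the arrays were equalised. Precision is limited by the number of arrays, 1 per group. Of 45141 probe sets, 28898 had 1 gene symbol, 551 several and 15692 none listed; those with several name no gene here. Matching by Entrez number to the RefSeq table of GRCm38.p6 succeeded for 28689 of these and changed 0 symbols.

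A gene took its probe set with the highest mean. Members and lists were chosen with earlier results of these data known. Values were named for members at least 1.5-fold apart, the extremes of each role group, a fixed set of key enzymes, and partner genes at least 1.5-fold apart; the other members are given so that each is accounted for. Promoters were chosen after values were seen. Kmt2a, Setd1a, Suv39h1, Kdm3b, Kdm6b, Hdac3, Hdac4, Sirt2 and Sirt6 had no probe set with a single symbol and are not analysed here. Counting was tested on simulated data. Python 3.11.15, numpy 2.4.6, pandas 2.3.3, statsmodels 0.14.6 and matplotlib 3.10.9 were used.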

Additional observations from a re-analysis of the deposited data

How the results depend on the processing

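The count of members at least 1.5-fold higher was 1, Hdac9, and it was 0 with the mean of all probe sets of a gene, with log2(value + 16), with the floor at the 75th percentile or at the background level, and, in a setting chosen after seeing the data, without Hdac9. It stayed at 1 with shared probe sets left out, with the median difference or a lowess curve (span 0.3) subtracted, and with no filter. The count at least 1.5-fold lower was 0 in each of these settings, and the median difference ran from -0.02 to 0.01. Of the 60 single differences, 50 moved by less than the within-gene probe set SD of 0.12 in every setting run on them. This count says little about stability. For the 31 members with 1 probe set the mean of all probe sets could not change the value. Subtracting the median moved every gene by the same small amount. Dnmt1, Dnmt3b, Prmt1, Prmt5, Setd3 and Sirt3 rest on shared probe sets only, so they had no value without those. The mean of all probe sets gave Ezh1 -0.12, Kdm5a 0.05, Hdac10 -0.10, Kdm6a -0.02, Kmt5b -0.08 and Prmt6 -0.15, and without shared probe sets Ezh1 stood at -0.05. With log2(value + 16), Hdac8 stood at -0.37, and Hdac9, Kdm4d and Kdm2a, below background on both arrays, moved as well, Hdac9 also with the mean of all probe sets. No paired analysis was possible because each group has 1 array. The number of arrays, and intensities near background for Hdac8, Hdac9 and Kdm8, limit what can be read from these values.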
